A study of Mus musculus with 2 samples.

Results

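The early genes described here are the AP-1 subunit genes Fos, Fosl1, Fosl2, Jun, Junb and Jund, together with Egr1, Klf4, Klf6 and Myc. They were taken by symbol, and 9 of the 10 had a value among 10982 gene names. Fos had none there, and this is not read as a low level. RNA was sequenced from cultures labelled as mouse neonatal cardiomyocytes, given either an antagomir against the piRNA FERPIR or a negative control. An antagomir is a chemically modified antisense oligonucleotide, and piRNAs are small RNAs carried by PIWI proteins. There was 1 library per group. Strain, dose and time after transfection were not stated in the labels, and the treatment label reads PBS for both libraries.

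Immediate early genes are switched on within minutes of a growth or stress signal, without a need for new protein, and most of them encode transcription factors. AP-1 is a dimer of a JUN protein with another JUN or with a FOS protein, and FOS proteins depend on a JUN partner to bind DNA. In cardiac cells these genes are known to respond to stretch, hypertrophic hormones and stress. Many early gene mRNAs are short-lived, so their levels can follow the rate of transcription closely. Neither mRNA lifetime nor the rate of transcription was measured here.

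Klf4, Klf6 and Myc had lower levels in the antagomir library, by 2.85-fold, 2.01-fold and 2.49-fold, and Junb had a level 2.09-fold higher. The other 5 early genes with a value, Jun, Jund, Fosl1, Fosl2 and Egr1, differed by less than 1.5-fold. Levels are in FPKM, that is, fragment numbers corrected for transcript length and for library size. Folds and log2 ratios are antagomir over control, computed after adding 1 to each FPKM, which makes differences of low genes look smaller. With 1 library per group there is no replicate error, no test and no p-value, so each difference describes these 2 libraries.

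The limit of 1.5-fold was applied where the higher of the 2 values reached 1 FPKM. By this rule 3 of the 9 early genes were lower and 1 was higher, against 13.4% lower and 10.8% higher among all 10201 such genes. The same 4 genes were past 2-fold, a limit that 3.79% of all genes passed downward and 2.88% upward. Klf6, at 2.01-fold, was under that limit after centring on the median of all genes, and Klf6 and Junb were under it after correction for transcript length and GC content. With values rescaled to TPM, 1071 genes were 1.5-fold higher and 2037 lower, against 1104 and 1364 as deposited, while the early genes stayed at 1 higher and 3 lower. The median log2 ratio of the 9 was -0.03, beside -0.05 over all genes, and their range ran between -1.51 and 1.06.

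**Figure D1:**
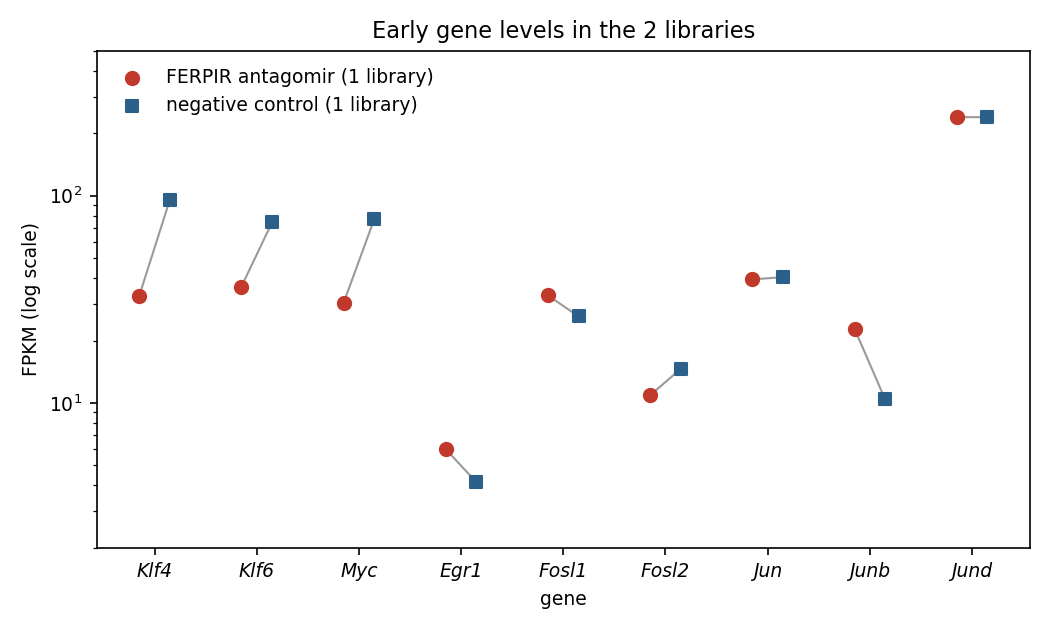
FPKM of the 9 early genes (log axis) in the antagomir library (circles) and the control library (squares), 1 library each, joined per gene. Klf4, Klf6 and Myc lie between 30.4 and 36.4 FPKM in the antagomir library and between 74.3 and 95.5 FPKM in the control library.

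The promoters of 3 of the 4 genes past 2-fold, and of Jun for comparison with Junb, are shown with the known factor motifs that lie in them. They are RefSeq windows on build GRCm38.p6, 250 bases before to 50 bases after the annotated start, written along the gene's own strand. Of the early genes outside the chromosome of Egr1, 7 matched the promoter table, and Myc and Fosl1 did not. Capitals mark, on either strand, the E-box CACGTG, which MYC binds with its partner MAX, the palindrome TGANNTCA, which takes in the AP-1 and CRE-like form of 8 bases, the CCAAT box CCAAT and the TATA box TATAAA.
Klf4, chr4:55532426-55532725, minus strand: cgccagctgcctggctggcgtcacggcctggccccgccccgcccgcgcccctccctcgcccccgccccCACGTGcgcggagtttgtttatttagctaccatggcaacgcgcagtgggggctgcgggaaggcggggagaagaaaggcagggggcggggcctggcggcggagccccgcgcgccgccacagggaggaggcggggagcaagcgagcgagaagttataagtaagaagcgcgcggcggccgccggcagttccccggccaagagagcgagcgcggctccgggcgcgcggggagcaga
Klf6, chr13:5861239-5861538, plus strand: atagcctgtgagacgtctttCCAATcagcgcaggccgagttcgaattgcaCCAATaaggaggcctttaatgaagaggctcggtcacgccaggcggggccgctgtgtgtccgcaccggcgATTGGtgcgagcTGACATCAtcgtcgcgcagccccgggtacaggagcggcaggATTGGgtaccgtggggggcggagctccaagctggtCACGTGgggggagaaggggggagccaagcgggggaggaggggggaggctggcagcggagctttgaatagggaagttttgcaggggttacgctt
Junb, chr8:84978699-84978998, minus strand: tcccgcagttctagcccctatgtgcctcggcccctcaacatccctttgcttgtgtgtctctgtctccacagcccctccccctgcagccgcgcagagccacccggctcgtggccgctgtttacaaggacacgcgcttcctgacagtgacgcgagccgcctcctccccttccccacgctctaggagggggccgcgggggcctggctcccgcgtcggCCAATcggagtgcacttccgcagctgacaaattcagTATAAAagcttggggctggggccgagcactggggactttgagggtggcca
Jun, chr4:95052173-95052472, minus strand: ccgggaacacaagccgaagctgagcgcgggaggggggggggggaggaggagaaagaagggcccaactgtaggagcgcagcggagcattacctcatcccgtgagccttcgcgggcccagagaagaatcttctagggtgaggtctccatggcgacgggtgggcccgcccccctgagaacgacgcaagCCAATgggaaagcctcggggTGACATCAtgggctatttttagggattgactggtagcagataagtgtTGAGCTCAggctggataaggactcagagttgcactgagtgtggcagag

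Klf4 and Klf6 each held a single CACGTG, 182 and 43 bases upstream of the start. This motif was in 7.15% of the 32851 windows of the same length, and in 2 of the 7 early gene windows. TGACATCA, a form of TGANNTCA, stood 45 bases upstream of the start of Jun and 119 bases upstream of that of Klf6. Jun also had TGAGCTCA just after its start. TGANNTCA, which includes the palindromic CRE TGACGTCA, was in 14.1% of all windows and in 3 of the 7, the third being Jund. The windows of Jun and Junb both held a CCAAT box, 65 bases upstream in Jun and 36 bases upstream in Junb. They differed in that Junb held no TGANNTCA but had TATAAA at the RefSeq start, and Jun held no TATAAA. Gene starts in the deposited table can differ from the RefSeq starts. They lay 1210 bases apart for Jund, 671 for Fosl2, 30 for Junb and under 10 for Jun, Klf4 and Klf6, so the windows of Jund and Fosl2 are not those at the starts in the deposited table. The deposited start of Junb is 30 bases downstream of its RefSeq start. Its CCAAT and TATAAA thus lie 30 bases further upstream of the deposited start than of the RefSeq start. The difference in CCAAT spacing between Jun and Junb therefore depends on the start used. CCAAT was in 37.4% of all windows and TATAAA in 13.6%. The GC box GGGCGG, a sequence that SP and KLF proteins bind, occurred 4 times before Klf4 and once each before Klf6, Jun, Fosl2 and Fos. It was in 35.7% of all windows and is not in capitals. None of the 7 early gene windows held TGACGTCA, the AP-1 heptamer TGANTCA or a CArG box, the site of SRF, on either strand. These motifs were in 1.79%, 7.81% and 1.63% of all windows, so their absence from 7 windows says little. Egr1, Myc and Fosl1 had no window searched, and sites upstream of the windows were not searched for any gene. The motif matches above are letters in a window, not measured binding.

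Klf4, which encodes a zinc finger factor known to restrain hypertrophic growth in mouse heart muscle, lies on chromosome 4 from 55527143 to 55532466 on the minus strand (build GRCm38, as for all coordinates). It had 32.8 FPKM in the antagomir library and 95.5 FPKM in the control library, a log2 ratio of -1.51. Among all genes ranked by log2 ratio it stood at percentile 0.98. Its value was close to those of Klf6, Fosl1 and Myc in the antagomir library, and was exceeded by that of Jund alone in the control library.

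Klf6, a related zinc finger gene that is induced by injury in many tissues, lies on chromosome 13 from 5861482 to 5870394 on the plus strand. Its level was 36.4 FPKM in the antagomir library, against 74.3 FPKM in the control library, a log2 ratio of -1.01 at percentile 3.63 of all genes. The ratio of Klf4 to Klf6 was 0.90 in the antagomir library and 1.29 in the control library, so Klf4 was the lower of the pair in the antagomir library and the higher in the control library.

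Myc lies on chromosome 15 from 61985391 to 61990374 on the plus strand and encodes a factor that drives ribosome production and cell growth. It had 30.4 FPKM in the antagomir library and 77.0 FPKM in the control library, a log2 ratio of -1.31 at percentile 1.81. Its obligate partner gene Max had 14.99 FPKM in the antagomir library and 15.99 FPKM in the control library, a log2 ratio of -0.09. The level of Myc was therefore 2.03 times that of Max in the antagomir library and 4.82 times that of Max in the control library. Exons of Klf4, Klf6 and Myc overlap those of no other gene in GENCODE release M21.

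Summed, Klf4, Klf6 and Myc had 99.6 FPKM in the antagomir library and 246.8 FPKM in the control library. The sum of all 9 early genes was 450.9 FPKM in the antagomir library against 581.6 FPKM in the control library. These 3 genes stood below Jun in level in the antagomir library, and between Jund and Jun in the control library.

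Junb, whose protein can replace JUN in AP-1 and weaken its action on some genes, lies on chromosome 8 from 84974484 to 84978718 on the minus strand. It had 22.8 FPKM in the antagomir library and 10.4 FPKM in the control library, a log2 ratio of 1.06 at percentile 97.7 of all genes. Its coding transcript has 1 exon. A further, non-coding transcript of Junb overlaps exons of Prdx2, a peroxiredoxin gene, which had 90.2 FPKM in the antagomir library and 66.3 FPKM in the control library, 1.36-fold higher. Whether reads from Prdx2 entered the value of Junb was not tested.

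Jun and Jund, the paralogs of Junb, had nearly equal levels in the 2 libraries. Jun, on chromosome 4 from 95049034 to 95052222, encodes the founding AP-1 subunit. Its level was 39.5 FPKM in the antagomir library and 40.4 FPKM in the control library. Its log2 ratio was -0.03, and 0.01 when all ratios were centred on their median. Jund, on chromosome 8 from 70698949 to 70700616, is the broadly expressed member of the family. It was the highest early gene in both libraries, with 239.2 FPKM in the antagomir library and 239.1 FPKM in the control library. Its log2 ratio of 0.00 became -0.08 as TPM and -0.26 after correction for transcript length and GC content. Both genes overlap an antisense gene, Junos beside Jun and Gm11175 beside Jund, neither of which had a value.

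The JUN family sum was 301.5 FPKM in the antagomir library and 289.9 FPKM in the control library. Junb made up 7.57% of it in the antagomir library and 3.58% in the control library, and Jund made up 79.3% in the antagomir library and 82.5% in the control library. The level of Jund was 10.5 times that of Junb in the antagomir library and 23.0 times that of Junb in the control library, whereas it was 6.06 times that of Jun in the antagomir library and 5.91 times that of Jun in the control library. Within this family the difference between the libraries thus lay for the most part in Junb.

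Fosl1 and Fosl2 encode FRA-1 and FRA-2, FOS proteins that lack the strong activation domains of FOS. Fosl1 had 33.0 FPKM in the antagomir library and 26.2 FPKM in the control library, a log2 ratio of 0.32. It lies on chromosome 19 from 5447703 to 5455945. In GENCODE release M21 its exons overlap those of Ccdc85b on the other strand. By the deposited coordinates the 2 genes do not overlap and lie 0.843 kb apart. Ccdc85b had 222.1 FPKM in the antagomir library and 47.7 FPKM in the control library, 4.58-fold higher. The value of Fosl1 is uncertain, because the sources used here state neither the annotation release nor whether reads were assigned by strand. Whether reads from Ccdc85b entered it was not tested.

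Fosl2, on chromosome 5 from 32135801 to 32157842, had 10.9 FPKM in the antagomir library and 14.6 FPKM in the control library, a log2 ratio of -0.40. The Fosl1 level was 3.03 times the Fosl2 level in the antagomir library and 1.79 times in the control library. The 2 genes together had 43.9 FPKM in the antagomir library and 40.8 FPKM in the control library. All 5 AP-1 genes with a value summed to 345.4 FPKM in the antagomir library against 330.7 FPKM in the control library. This was a ratio of 1.04, and Jund made up 69.3% of the sum in the antagomir library and 72.3% in the control library. The KLF family sum below was 0.56 of the control sum, of which Klf4 and Klf6 made up 66.7%. The other 10 KLF genes with a value summed to 72.4 FPKM in the antagomir library and 84.7 FPKM in the control library.

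Egr1, a zinc finger gene induced through ERK signalling and SRF, lies on chromosome 18 from 34859823 to 34864984. It had 5.98 FPKM in the antagomir library and 4.14 FPKM in the control library, a log2 ratio of 0.44, and was the lowest early gene in both. Nab2, which encodes a corepressor that EGR1 itself induces, had 35.2 FPKM in the antagomir library and 24.8 FPKM in the control library, a log2 ratio of 0.49. Nab1 had 9.07 FPKM in the antagomir library against 9.95 FPKM in the control library. Egr2 and Egr3 stayed under 1 FPKM in both libraries.

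**Figure D2:**
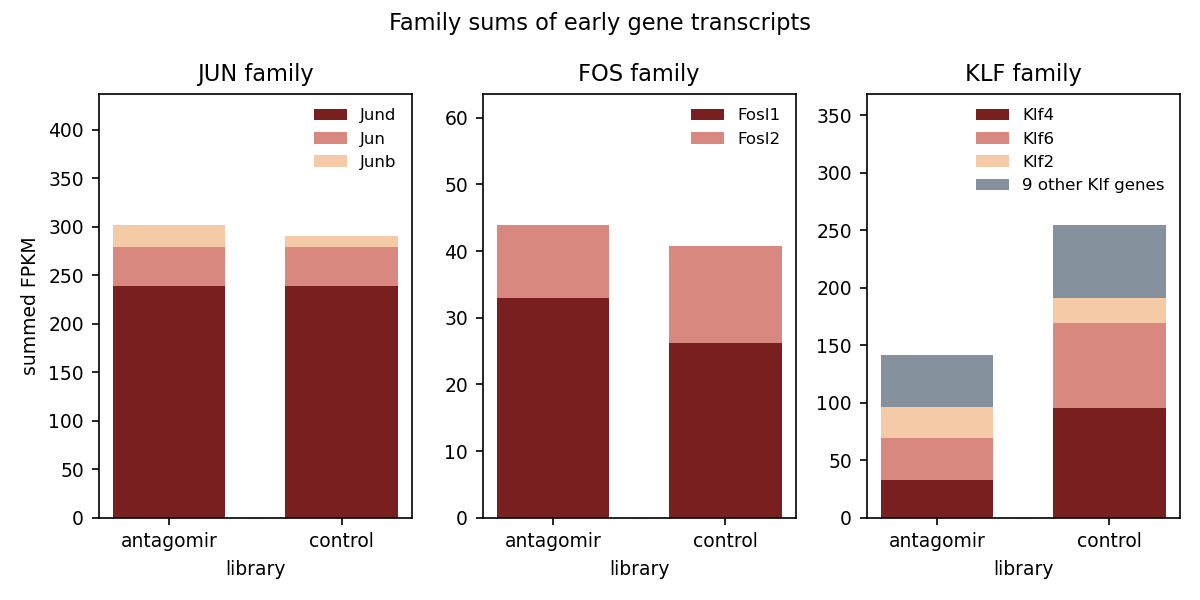
Summed FPKM of the JUN, FOS and KLF families in the antagomir library (left bar) and the control library (right bar), stacked by gene, with linear axes from 0. The KLF sum is 141.6 FPKM in the antagomir library against 254.5 FPKM in the control library, while the JUN sum is 301.5 FPKM in the antagomir library against 289.9 FPKM in the control library. Without Klf4 and Klf6 the KLF sum is 72.4 FPKM in the antagomir library and 84.7 FPKM in the control library.

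In level, the early genes with a value, apart from Egr1, lay above the median of all gene levels in both libraries, some of them not far above it. Klf4, Klf6 and Myc lay at percentiles 84.2, 85.7 and 83.0 of all gene levels in the antagomir library and at 94.8, 93.1 and 93.4 in the control library. Junb lay at percentile 78.3 in the antagomir library and 58.5 in the control library. Fosl2 lay at percentile 61.5 in the antagomir library and 67.7 in the control library. No spread over replicates is known, so neighbours in this order, such as Fosl1 and Klf4 in the antagomir library (33.0 and 32.8 FPKM), cannot be ranked. Among the 357 genes with a log2 mean level from 5.5 up to 6, where Klf6 and Myc fall, the lowest 5% had log2 ratios below -1.06. Myc, at -1.31, was among that lowest part, and Klf6, at -1.01, was not.

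**Figure D3:**
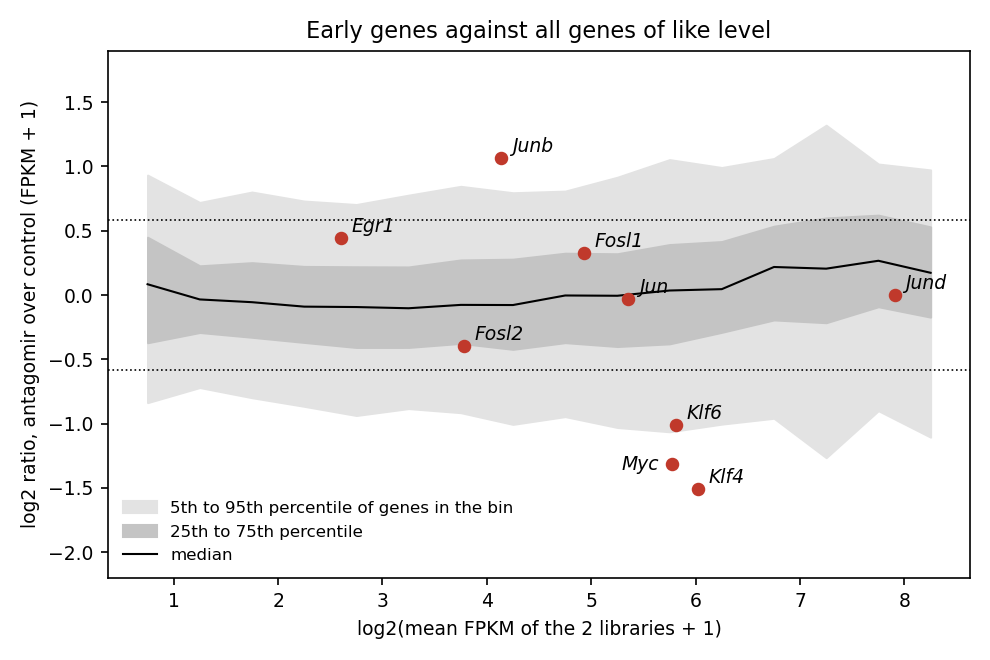
Log2 ratio of each early gene against log2 of its mean FPKM + 1, over the 5th to 95th and 25th to 75th percentiles of all genes in bins of level, with dotted lines at 1.5-fold. Klf4 (-1.51) and Myc (-1.31) lie below the outer band, Klf6 (-1.01) lies just inside it and Junb (1.06) lies above it.

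Jun, Junb and Jund share a structure with a single exon in their longest annotated transcript, which held for 6.01% of the genes in the table. The pentamer ATTTA, the core of the AU-rich elements through which ZFP36 proteins speed mRNA decay, was in the 3' untranslated region of all 10 genes and of 70.8% of the genes in the table. Fosl2 held 8, Klf6 7, Jun and Fos 4 each, Myc, Junb and Egr1 2 each, and Klf4, Jund and Fosl1 1 each. The median over the genes in the table was 2, and 30.6% of them held 4 or more, as did 4 of the 10 early genes. The 3' untranslated regions of Fosl2 and Klf6 were also long, at 4653 and 3111 bases against a median of 1326. The longer form TTATTTATT was found in Fos and Fosl2, against 8.12% of the genes in the table.

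Related genes were described by their counts and medians, beside the shares of all genes given above, with no test. The lists were chosen with earlier results of these data known. Exon overlaps are stated for some of the genes named, and not for all that have them. Nab2, Hspe1, Tagln, Mybbp1a, Gadd45a, Ctgf, Phlda1 and Map2k7, among others, also overlap another gene in GENCODE release M21. Such an overlap held for 37.6% of the genes in the table. Of 15 other KLF genes 10 had a value, and 5 were at least 1.5-fold lower and none higher, with a median log2 ratio of -0.50. Klf7 had 3.11 FPKM in the antagomir library and 7.67 FPKM in the control library, 2.11-fold lower, and Klf9, a gene responsive to glucocorticoid and thyroid hormone, had 3.60 FPKM in the antagomir library against 7.55 FPKM in the control library. Klf3, Klf5 and Klf15 were 1.58-fold, 1.67-fold and 1.74-fold lower. Klf10, an early gene of TGF-beta signalling, had the highest log2 ratio, 0.51. Klf2, a flow-responsive gene of endothelium, had 26.8 FPKM in the antagomir library and 21.7 FPKM in the control library. Klf4 and Klf6 together made up 48.9% of the KLF family sum in the antagomir library and 66.7% in the control library. After correction for transcript length and GC content the median of the 10 was -0.35, and 4 of them were 1.5-fold lower. At a 2-fold limit 1 was lower. With a pseudocount of 0.1 or 0.01, 1 of the 10 was 1.5-fold higher and 5 were lower.

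Among other AP-1 related genes 7 of 13 reached 1 FPKM, with a median log2 ratio of -0.24. Atf3, a stress-induced factor that pairs with JUN proteins, had 22.5 FPKM in the antagomir library and 175.5 FPKM in the control library, a larger difference than that of any of the 9 early genes. Atf7 was 1.55-fold higher from a low level, and Jdp2, a repressor partner of JUN, had 53.6 FPKM in the antagomir library against 50.3 FPKM in the control library. Fosb, Batf, Batf2 and Batf3 were not among the genes with a value.

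In the MYC network 8 of 12 genes reached 1 FPKM, with a median log2 ratio of -0.14, which was 0.03 for those reaching 5 FPKM and 0.08 after correction for transcript length and GC content. Mxd3, which encodes a MAX partner that opposes MYC at E-boxes, had 8.54 FPKM in the antagomir library and 3.01 FPKM in the control library, 2.38-fold higher, with exons that overlap Prelid1. Mxd4, of the same group, was 1.60-fold higher and Mnt, another MAX partner, 1.55-fold lower. The level of Myc was 3.55 times that of Mxd3 in the antagomir library and 25.6 times in the control library. Of 32 genes known as MYC targets, for the most part in ribosome production and growth, 5 were at least 1.5-fold lower and 2 higher, with a median log2 ratio of -0.09. Srm, a polyamine synthesis gene, had 44.6 FPKM in the antagomir library and 96.7 FPKM in the control library, 2.14-fold lower. Rrp12, Mybbp1a, Utp20 and Cad were between 1.52-fold and 1.81-fold lower, and Nme1 and Hspe1 were 1.83-fold and 1.57-fold higher. Ncl, Npm1 and Odc1, also on this list, had log2 ratios of 0.02, 0.09 and -0.01.

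Of 32 other immediate early genes 28 reached 1 FPKM, and 11 were at least 1.5-fold lower and 4 higher, with a median log2 ratio of -0.22. Ppp1r15a, a stress gene that restores translation, had 23.7 FPKM in the antagomir library and 111.8 FPKM in the control library, 4.56-fold lower, with exons that overlap Tulp2. Tnfaip3, an inhibitor of NF-kB, was 2.61-fold lower and Plk3, a stress-responsive kinase gene that overlaps Tctex1d4, 2.36-fold lower. Gadd45a and Gadd45b, growth arrest paralogs, lay on opposite sides. Gadd45a had 96.2 FPKM in the antagomir library and 241.2 FPKM in the control library, and Gadd45b had 12.9 FPKM in the antagomir library against 4.13 FPKM in the control library. Nfkbia, an NF-kB target and inhibitor, and Ctgf were each 1.66-fold higher, and Phlda1 was 1.55-fold higher. Cyr61 had 131.5 FPKM in the antagomir library and 286.4 FPKM in the control library, 2.17-fold lower. Plk2, Btg1, Btg2 and Pim1 were 1.80-fold, 1.69-fold, 1.67-fold and 1.61-fold lower. Ptgs2 and Zfp36, which are also on other lists below, were 4.02-fold and 1.52-fold lower. Ier2, Ier3 and Ier5 had log2 ratios of -0.06, -0.40 and -0.16, and Srf, the factor that drives many of these genes, one of -0.27.

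The genes that carry signals to early genes, from RAS through the MAP kinases to ELK and CREB factors, numbered 29 at 1 FPKM or more, 4 of them 1.5-fold higher and 4 lower, and their median log2 ratio was -0.12. This median was 0.13 for members reaching 5 FPKM and 0.04 after correction for transcript length and GC content. Map2k7, which activates the kinases that phosphorylate JUN, had 10.2 FPKM in the antagomir library and 4.14 FPKM in the control library, 2.19-fold higher. The genes of those kinases, Mapk8 and Mapk9, had log2 ratios of 0.06 and -0.39. Mapk14, which encodes p38, had 4.45 FPKM in the antagomir library against 10.4 FPKM in the control library, 2.09-fold lower. Creb1 had 2.81 FPKM in the antagomir library against 0.62 FPKM in the control library, a low level in both libraries. Mapk3, a kinase gene of the ERK cascade, had a log2 ratio of 0.30.

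Genes of AU-rich mRNA binding and deadenylation numbered 18, of which Khsrp, Zfp36 and Cnot1 were 1.5-fold lower and none was higher, and their median log2 ratio was -0.35. Khsrp, which promotes decay of such mRNAs, had 26.0 FPKM in the antagomir library and 42.9 FPKM in the control library. Genes that act on JUN or MYC protein turnover had a median of -0.22 over 15 genes, with Aurka and Fbxl14 higher and Usp36 lower at 1.5-fold. Fbxw7, which marks both proteins for degradation, had 1.22 FPKM in the antagomir library and 1.27 FPKM in the control library.

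Genes known as AP-1 targets were divided, with 5 of 15 at least 1.5-fold higher, 5 lower and a median log2 ratio of -0.31. Ccnd1, the cyclin of the early cell cycle, had 50.8 FPKM in the antagomir library and 18.1 FPKM in the control library, 2.72-fold higher, with exons that overlap LTO1. Ccl2, a monocyte chemokine, had 55.4 FPKM in the antagomir library against 21.8 FPKM in the control library, and Timp1, an inhibitor of matrix proteases, and Plau, a plasminogen activator gene, were 1.83-fold and 1.61-fold higher. Fn1, the fibronectin gene, had 92.8 FPKM in the antagomir library and 413.7 FPKM in the control library, 4.42-fold lower, with exons that overlap Apol7d. Ptgs2, a prostaglandin synthesis gene, was 4.02-fold lower and Hmox1, a heme-degrading stress enzyme gene, 3.54-fold lower. Il6 was 1.96-fold lower from a low level. Plaur, the receptor for the product of Plau, had 17.96 FPKM in the antagomir library against 31.8 FPKM in the control library, 1.73-fold lower. For members reaching 5 FPKM the median of this list was 0.16, of the opposite sign.

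**Figure D4:**
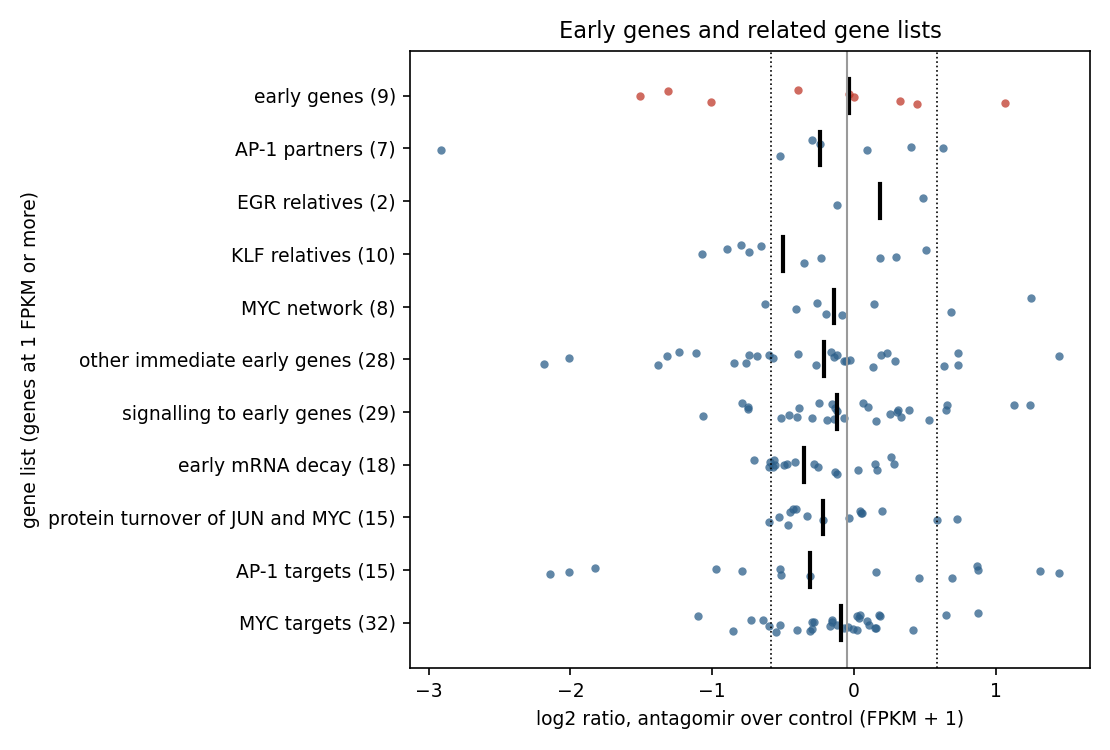
Log2 ratio of each gene at 1 FPKM or more (points), by list, with the list median (black bar), the median of all genes (grey line) and dotted lines at 1.5-fold; the number of genes is in brackets. The 9 early genes run between -1.51 and 1.06, and all 5 KLF relatives past the limit lie on the lower side.

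Markers of cell types were read in the same 2 libraries. In bulk RNA fewer cells of a type and less RNA per cell cannot be told apart. Of 14 cardiomyocyte markers 3 had a value, Tnnt2, Tnnc1 and Nkx2-5, and they summed to 43.5 FPKM in the antagomir library and 19.6 FPKM in the control library. Tnnt2 had 8.19 FPKM in the antagomir library and 1.48 FPKM in the control library, 3.71-fold higher from a low level. Tnnc1 had 18.9 FPKM in the antagomir library against 4.39 FPKM in the control library, 3.69-fold higher. Nkx2-5, with 16.4 FPKM in the antagomir library and 13.7 FPKM in the control library, made up most of the control sum. Myh6, Myh7, Actc1, Actn2, Ryr2 and Nppa were not among the genes with a value, so the cell type label could not be checked against these defining markers. Of 9 fibroblast markers 6 had a value, 3 of them at least 1.5-fold lower, and they summed to 341.0 FPKM in the antagomir library against 548.4 FPKM in the control library. Smooth muscle and pericyte markers summed to 891.6 FPKM in the antagomir library against 1331.9 FPKM in the control library over 5 of 7 genes. Acta2 made up most of this sum, with 844.6 FPKM in the antagomir library and 1304.5 FPKM in the control library. Tagln, of the same list, was 2.02-fold higher and Cnn1 1.40-fold higher, and the median log2 ratio of the 5 was -0.09. None of 7 endothelial markers, 2 of 8 leukocyte markers, 2 of 5 erythroid markers and 2 of 4 epicardial markers had a value. The part of these markers in the early gene differences was not tested.

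**Figure D5:**
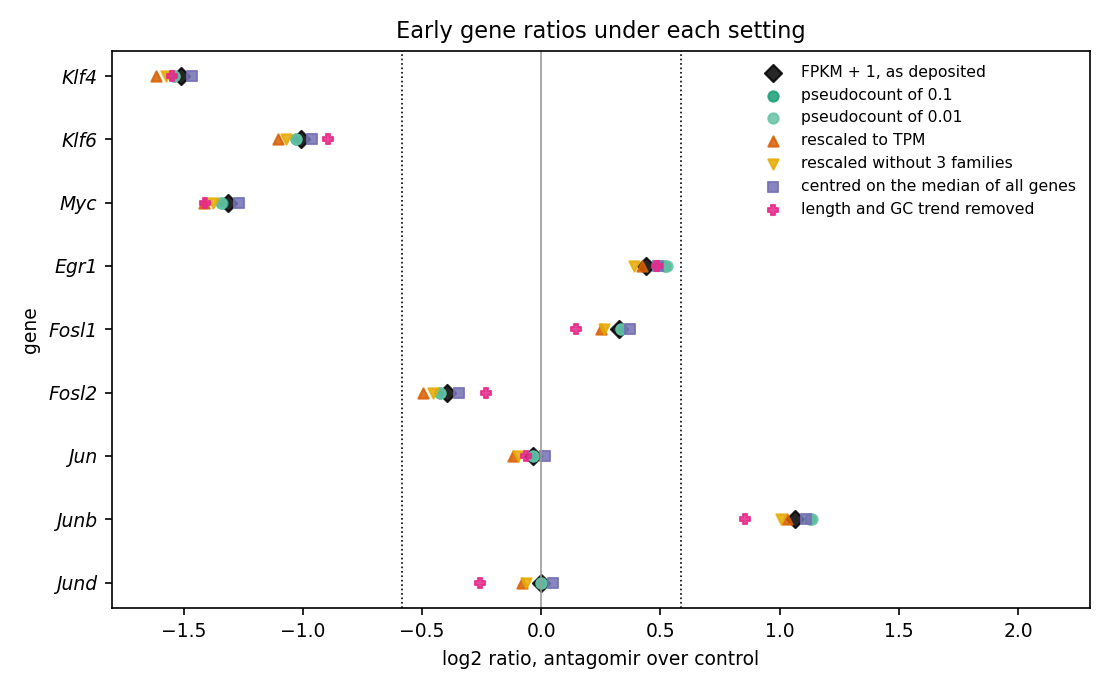
Log2 ratio of each early gene as deposited (diamond) and under pseudocounts of 0.1 and 0.01, both rescalings, centring and removal of the length and GC trend, with dotted lines at 1.5-fold. Klf4, Klf6, Myc and Junb stay outside these lines under all of them, and the other 5 genes stay inside.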

How the data were processed

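RNA from 1 antagomir and 1 control culture was measured as gene-level FPKM. The authors made the deposited FPKM values with cutadapt, HISAT2 and StringTie 1.3.3 on GRCm38, per the submitters' processing notes; the annotation release and strand use are not stated there. FPKM is relative to each library's fragments, so a few abundant genes can lower the values of others; the values summed to 312806 in the antagomir library and 295404 in the control library. The 10 repeated symbols were summed. No steps of whole reads were found in low values, so depth is unknown and no counting interval is given. Log2 ratios used a pseudocount of 1, and counts a minimum of 1 FPKM and a 1.5-fold limit. Genes named were all early genes, list members past 1.5-fold or at a list's end, and overlapping genes; others in the text (Max, Nab1, Egr2, Egr3, Klf2, Jdp2, Ncl, Npm1, Odc1, Ier2, Ier3, Ier5, Srf, Mapk3, Mapk8, Mapk9, Fbxw7 and neighbours) were chosen after their values were seen. The early genes and lists were chosen with earlier results of these data known. Lengths, GC content, exons and overlaps came from GENCODE M21, which matched 10982 of 10992 rows, and promoters from RefSeq. The analysis used Python 3.11.15, pandas 2.3.3, numpy 2.4.6 and matplotlib 3.10.9, and its calculations were tested on simulated data. Alternatives were other pseudocounts, minimums and fold limits, 2 rescalings, centring and a length and GC correction.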

Additional observations from a re-analysis of the deposited data

How the results depend on the processing

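Across the 6 other settings that enter the ratio, the 9 early genes stayed on the same side of 1.5-fold in 54 of 54 ratios, and the sign was kept in 50. All 9 also passed a minimum of 5 FPKM. The sign changes were those of Jund as TPM (-0.08), after leaving mitochondrial, hemoglobin and ribosomal protein genes out of the library total (-0.06) and with the length and GC trend removed (-0.26), and of Jun after centring (0.01). Log2 ratios ranged over -1.61 to -1.46 for Klf4, -1.11 to -0.89 for Klf6, -1.42 to -1.27 for Myc and 0.85 to 1.13 for Junb. Klf6 was under 2-fold after centring (-0.96) and with the trend removed (-0.89), and Junb with the trend removed (0.85). The median of the early genes was -0.23 with the trend removed, and -1.01 over the 5 whose exons overlap no other gene, a choice that leaves out Fosl1, Jun, Junb and Jund. Of 260 counts and medians of related lists, 198 moved by no more than 1.5 times or 0.1. Genes lower by 1.5-fold in the mRNA decay list numbered 3 as deposited, 8 as TPM and 6 at either other pseudocount. The number was 1 at a minimum of 5 FPKM or after centring, and 0 at a 2-fold limit. The share of all genes that were lower moved with the setting too. It was 13.4% as deposited, 19.97% as TPM and 17.47% at a pseudocount of 0.1. At a minimum of 5 FPKM it was 15.8%, after centring 11.6% and at a 2-fold limit 3.79%. The medians of the MYC network, signalling and AP-1 target lists changed sign at a minimum of 5 FPKM, and the first 2 also with the trend removed. No paired analysis was possible because each group had 1 library. Depth is unknown, so low genes such as Creb1 and Egr1 are the least certain.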

Other observations

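The nearest genes with a value on either side of each early gene were read as a description, a choice made after the data were seen. Of these 18 neighbours 2 were at least 1.5-fold higher and 1 was lower in the antagomir library, against 10.8% higher and 13.4% lower among all genes. Their median log2 ratio was -0.15, beside -0.05 over all genes. Rad23b, a DNA repair gene 135 kb from Klf4, had 47.9 FPKM in the antagomir library and 57.9 FPKM in the control library, a log2 ratio of -0.27 beside -1.51 for Klf4. The nearest genes with a value beside Myc were far from it, at 2328 kb for Trib1 and 1939 kb for Fam49b, with log2 ratios of -0.12 and 0.06. Hook2, a cytoskeletal linker gene at 11.9 kb from Junb, had 4.74 FPKM in the antagomir library and 6.01 FPKM in the control library, on the lower side where Junb was higher. Lsm4, an RNA-binding protein gene at 20.2 kb from Jund, was 1.52-fold higher, and Babam2, a DNA repair gene at 50.8 kb from Fosl2, was 1.83-fold lower. The highest ratio among the neighbours was that of Ccdc85b beside Fosl1.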
